A study of Mus musculus with 5 samples.

Results

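Vascular and fibroblast nuclei are the nuclei of blood vessel walls and of the membranes around them: endothelial cells, the mural cells (pericytes and smooth muscle) that wrap them, and the fibroblasts of the meninges and of the spaces around vessels. They were chosen by their RNA from 5 single-nucleus libraries of mouse hippocampus. A nucleus with at least 500 detected genes was a member when 15 selection genes together held at least 6 UMIs (unique molecular identifiers, each counting 1 captured RNA molecule) and at least 20 per 10000 UMIs of the nucleus, at least 3 of the 15 were detected, and Slc17a7, Gad1 and Gad2, which mark neurons, held at most 2 UMIs together. The rule found 56 members among 28099 nuclei, or 0.199% (95% Clopper-Pearson interval 0.151 to 0.259, counting error only). A member was called endothelial-like, mural-like or fibroblast-like when at least 70% of its selection UMIs came from the 6 endothelial genes (Flt1, Cldn5, Mecom, Adgrl4, Ptprb and Slco1a4), the 5 mural genes (Pdgfrb, Rgs5, Atp13a5, Abcc9 and Notch3) or the 4 fibroblast genes (Bnc2, Ranbp3l, Slc6a13 and Col1a2), and mixed otherwise. This gave 20 endothelial-like, 14 mural-like, 15 fibroblast-like and 7 mixed nuclei.

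The endothelium of brain vessels forms the blood-brain barrier: its tight junctions close the gaps between cells, and membrane transporters carry glucose, amino acids and hormones across while efflux pumps return many drugs to the blood. Pericytes sit in the basement membrane of capillaries, depend on signals through the PDGF receptor beta and help to keep the barrier closed, whereas smooth muscle cells contract around arteries and arterioles. Meningeal and perivascular fibroblasts make collagens and secrete prostaglandin D synthase and retinoic acid, and their many solute carriers exchange small molecules with the cerebrospinal fluid.

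The libraries were made from hippocampal nuclei of a wild-type mouse group, of 5xFAD mice (which carry human amyloid precursor protein and presenilin 1 transgenes with familial Alzheimer's disease mutations), and of 5xFAD mice labelled as lacking MAGL in astrocytes, in neurons or globally. MAGL is monoacylglycerol lipase, the product of Mgll, which breaks down the endocannabinoid 2-arachidonoylglycerol. Each genotype was represented by 1 library, and all 5 carried the same batch label. The labels do not give the number of animals per library, their age or sex, or the recombinase line behind the cell type specific knockouts. Values for several libraries below stand in the order wild type, 5xFAD, astrocyte MAGL-KO, neuron MAGL-KO and global MAGL-KO. With 1 library per genotype no test between genotypes was possible, and intervals cover counting error only.

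Each library gave RNA and chromatin accessibility of the same nuclei. Members held a median of 2432 UMIs against 15974 over all nuclei, and a median of 3145 transposase cut sites in peaks against 12164. Of the members, 25 held Xist UMIs without Y-linked ones, 20 the reverse, 3 both and 8 neither, and every library held both kinds. Outside the members Mgll stood at 74.2, 77.7, 92.1, 92.4 and 80.2 counts per 1000000 UMIs (CPM), and so was not lower in the libraries labelled as knockouts. These sums over all cell types could not show a loss in 1 cell type. Counts per gene also could not show a deletion of part of the gene. The values therefore neither bear out nor contradict the labels. The libraries labelled as knockouts are therefore named by their labels only. Of all barcodes, 442 occurred in more than 1 library. They included 2 members' barcodes, and no barcode was shared between members.

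The promoters of 6 genes show the regulatory sequence at which accessibility was counted in these nuclei; they were picked after the data had been seen. Each is the 250 bases upstream of the RefSeq transcription start on GRCm38.p6, written in the direction of transcription, and each overlapped an accessibility peak in 4 or 5 libraries. Flt1 encodes a VEGF receptor and Id3 a repressor of basic helix-loop-helix factors. Kcnj8 encodes the pore of the pericyte ATP-sensitive potassium channel, Ptgds prostaglandin D synthase, Ranbp3l a Ran-binding protein and Gas1 a Hedgehog co-receptor. Capitals mark matches, on either strand, to a cyclic AMP response element (TGACGTCA), an ETS core (GGAAGT), a GC box (GGGCGG) or a TATA box (TATAAA). Of 32851 RefSeq promoters of 300 bases, 1.55% hold the first of these, 19.7% the second, 32.7% the third and 12.4% the last.
Flt1, chr5:147726012-147726261, minus strand: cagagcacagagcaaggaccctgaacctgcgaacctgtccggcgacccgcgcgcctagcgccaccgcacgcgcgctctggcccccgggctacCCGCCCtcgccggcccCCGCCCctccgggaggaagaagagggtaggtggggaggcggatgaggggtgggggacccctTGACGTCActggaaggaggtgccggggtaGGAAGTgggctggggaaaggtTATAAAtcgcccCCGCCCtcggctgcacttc
Id3, chr4:136143572-136143821, plus strand: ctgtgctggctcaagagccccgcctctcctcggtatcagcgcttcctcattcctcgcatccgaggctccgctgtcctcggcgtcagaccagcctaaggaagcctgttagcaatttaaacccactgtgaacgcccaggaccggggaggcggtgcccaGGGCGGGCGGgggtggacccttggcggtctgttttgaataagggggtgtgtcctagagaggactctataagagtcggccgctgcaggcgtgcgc
Kcnj8, chr6:142571615-142571864, minus strand: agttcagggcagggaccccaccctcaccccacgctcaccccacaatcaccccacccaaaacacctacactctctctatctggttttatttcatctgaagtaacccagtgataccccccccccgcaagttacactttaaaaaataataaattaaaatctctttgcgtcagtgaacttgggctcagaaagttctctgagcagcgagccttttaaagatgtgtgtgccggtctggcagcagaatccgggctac
Ptgds, chr2:25469750-25469999, minus strand: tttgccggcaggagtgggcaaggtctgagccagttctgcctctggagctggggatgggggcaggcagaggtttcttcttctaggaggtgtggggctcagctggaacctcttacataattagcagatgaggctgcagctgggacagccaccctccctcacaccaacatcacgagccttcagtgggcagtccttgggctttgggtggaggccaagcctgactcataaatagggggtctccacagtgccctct
Ranbp3l, chr15:8967699-8967948, plus strand: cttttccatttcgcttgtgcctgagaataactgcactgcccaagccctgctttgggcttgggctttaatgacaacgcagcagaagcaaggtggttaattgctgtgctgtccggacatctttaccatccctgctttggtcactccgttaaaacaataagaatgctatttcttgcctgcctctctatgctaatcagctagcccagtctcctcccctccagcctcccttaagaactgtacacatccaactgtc
Gas1, chr13:60177536-60177785, minus strand: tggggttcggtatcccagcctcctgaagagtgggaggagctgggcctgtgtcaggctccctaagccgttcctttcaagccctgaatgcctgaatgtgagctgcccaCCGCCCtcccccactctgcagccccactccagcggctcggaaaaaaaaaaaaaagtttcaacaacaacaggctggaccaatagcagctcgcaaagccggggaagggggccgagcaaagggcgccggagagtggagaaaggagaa
The Flt1 sequence held 6 matches, with the response element, the ETS core and the TATA box each found once and the GC box 3 times. Id3 held a pair of overlapping GC boxes, Gas1 held 1 GC box, and Kcnj8, Ptgds and Ranbp3l held none of the 4 motifs in these windows. A match is a description of the letters and not a bound site. Cut sites in the peaks over these sequences were few, and these genes do not stand for their lists. The peak over the Flt1 sequence held 7 cut sites of endothelial-like nuclei and 0 of mural-like and fibroblast-like nuclei. At Ptgds the fibroblast-like nuclei held 7 cut sites and at Ranbp3l 4, with 0 in endothelial-like and mural-like nuclei at both. At Kcnj8 the mural-like nuclei held 4 and the endothelial-like and fibroblast-like nuclei 0. Id3 was cut in all 3 classes, at 20, 10 and 10 sites in endothelial-like, mural-like and fibroblast-like nuclei, and Gas1 mostly in fibroblast-like nuclei, at 4, 3 and 20 sites. The mixed nuclei held 10 cut sites at Ptgds, 1 at Ranbp3l and 2 at Kcnj8. Summed over the promoter peaks of the 14 endothelial markers outside the rule, endothelial-like nuclei held 1.36 cut sites per 10000, below the 2.45 of mural-like and 3.14 of fibroblast-like nuclei, against 0.536 in non-member nuclei. The classes held 81106, 69250 and 89075 cut sites in all.

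**Figure D1:**
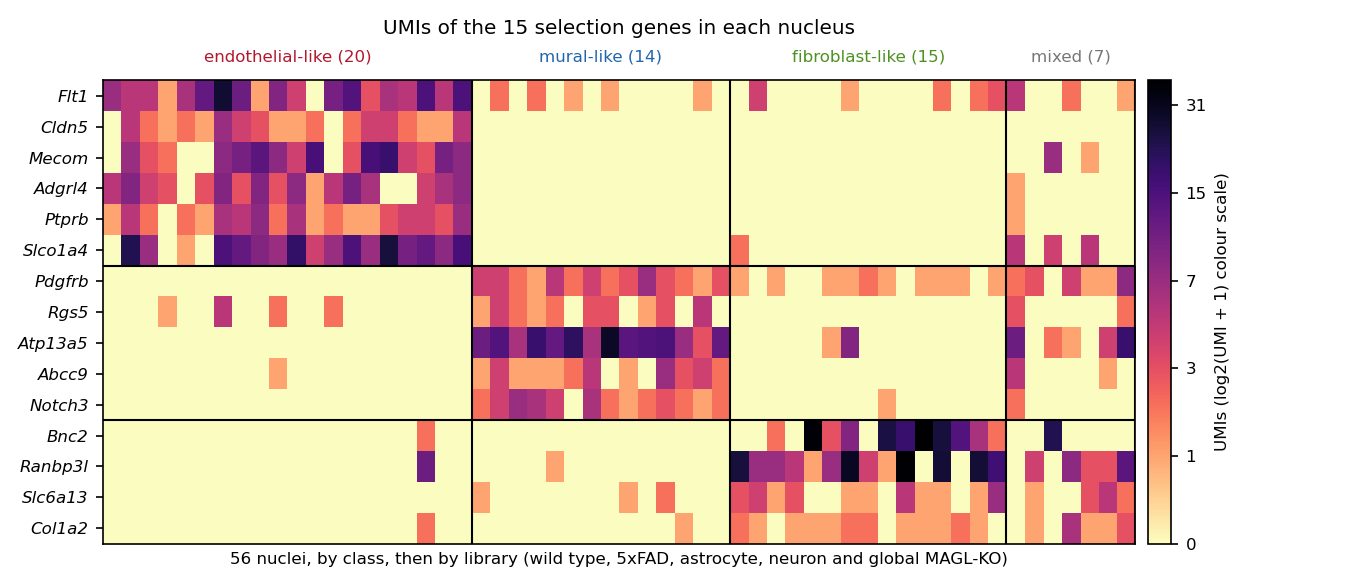
UMIs of the 15 selection genes (rows) in each of the 56 members (columns, grouped by class), with colour on a log2(UMI + 1) scale. The 3 blocks along the diagonal hold most UMIs because the classes were cut from these genes, and the 7 mixed nuclei on the right carry genes of more than 1 block.

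The classes were cut from the 15 selection genes, so that their separation in these genes is a description and not a test. Members held fewer UMIs than most nuclei. Among the 10 genes of highest fold against non-member nuclei, endothelial-like, mural-like and fibroblast-like nuclei had 6, 6 and 5 listed markers. The count takes the lists of all classes and the selection genes together. It includes Ebf1 of the mural list in endothelial-like nuclei and Slc6a20a of the fibroblast list in mural-like nuclei. In endothelial-like nuclei the 6 endothelial genes gave 698 of 724 selection UMIs. Mural genes gave 322 of 335 in mural-like nuclei and fibroblast genes gave 414 of 450 in fibroblast-like nuclei. All selection UMIs came from 1 gene group in 15, 4 and 3 nuclei of these classes. Near the 70% limit, between 60% and 80%, lay 1 endothelial-like, 0 mural-like, 3 fibroblast-like and 5 mixed nuclei. Cldn5 (claudin-5, the main tight junction protein of brain endothelium) had 48 UMIs in endothelial-like nuclei and 0 in the other classes. Mecom, a transcription factor of endothelium, had 133, 0 and 0 in endothelial-like, mural-like and fibroblast-like nuclei, and Atp13a5, a P5-type ATPase of brain pericytes, had 0, 180 and 10.

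Nuclei near each threshold were counted. Members with 6 to 9 selection UMIs numbered 4, and 1 nucleus with 4 UMIs met the other conditions. Between 20 and 30 selection UMIs per 10000 lay 5 members, and 10 nuclei missed the rate with 15 to 20. Neuronal UMIs of 1 or 2 were present in 4 members, and 2 nuclei were left out for more than 2. The number of genes mattered most: 4 members had exactly 3 of the 15 genes, while 16 nuclei failed for having only 2. These 16 comprised 15 that would be fibroblast-like and 1 mural-like, and lay in the 5xFAD, neuron MAGL-KO and global MAGL-KO libraries, with 3, 4 and 9 nuclei.

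**Figure D2:**
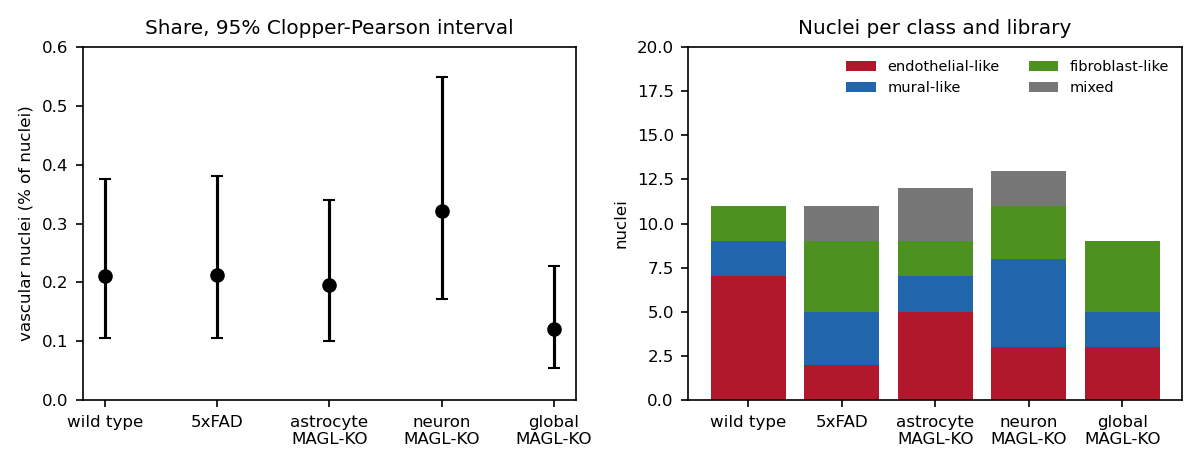
Left, members as a percentage of nuclei in each library with 95% Clopper-Pearson intervals; right, number of members of each class in each library. All 5 intervals overlap, and no class exceeds 7 nuclei in any library.

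Members were rare in every library. The shares were 0.210% in wild type (11 nuclei, interval 0.105 to 0.376), 0.213% in 5xFAD (11 nuclei, 0.106 to 0.380), 0.195% in astrocyte MAGL-KO (12 nuclei, 0.101 to 0.340), 0.321% in neuron MAGL-KO (13 nuclei, 0.171 to 0.548) and 0.120% in global MAGL-KO (9 nuclei, 0.055 to 0.228). The neuron library was the highest and the global library the lowest, and their intervals overlapped. With 2 genes in place of 3 the share in the global library was 0.241%, so its place as the lowest rested on that threshold. Endothelial-like nuclei numbered 7, 2, 5, 3 and 3 across the libraries, mural-like 2, 3, 2, 5 and 2, and fibroblast-like 2, 4, 2, 3 and 4. These shares describe the nuclei that passed isolation and the rule, and not the make-up of the tissue.

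RNA of other cell types was present in some members. In 12 of the 56 nuclei the markers of 1 other cell type held more UMIs than the 15 selection genes: 3 endothelial-like, 4 mural-like, 2 fibroblast-like and 3 mixed. The 10 astrocyte markers held 108 UMIs in endothelial-like, 211 in mural-like and 157 in fibroblast-like nuclei, or 2279, 5465 and 2551 CPM, against 545 CPM in non-member nuclei. A few nuclei carried most of them: 3 mural-like nuclei held 97, 86 and 17, 2 endothelial-like nuclei held 58 and 28 and 1 fibroblast-like nucleus held 67, while the median was 0 UMIs in mural-like and endothelial-like and 5 in fibroblast-like nuclei. Among them Gfap was at 0 in endothelial-like nuclei, and Aqp4, Aldh1l1, Gfap and Fgfr3 were at 0 in fibroblast-like nuclei. Of the 157 UMIs in fibroblast-like nuclei, 58 were of Slc1a3, which is also counted among the carriers of meningeal fibroblasts below. Oligodendrocyte markers held 57, 81 and 84 UMIs, of which 47, 70 and 67 lay in a single nucleus of each class. The 9 markers of border macrophages and T cells were all at 0 in the 3 classes, and the 10 microglial markers held 8, 3 and 1 UMIs. Excitatory neuron markers stood at 422, 311 and 179 CPM against 9064 CPM in non-member nuclei. The rule limited Slc17a7, which is on this list, so that this low level was partly set by the choice of members. Among the mixed nuclei, choroid plexus and ependymal markers held 429 UMIs, of which 347 lay in 1 nucleus of the astrocyte MAGL-KO library. Scrublet, a doublet caller, placed no member among its highest scores at the share of doublets set for each library. Its automatic threshold called 4 of the 9 members of the global MAGL-KO library, where it called 2305 of 7480 nuclei, and 0 members elsewhere. The part of this other RNA in the profiles below was not tested.

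**Figure D3:**
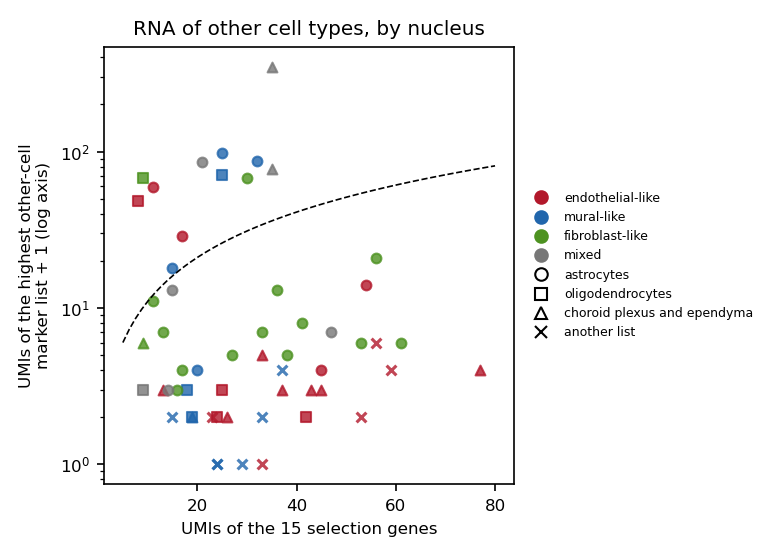
For each of the 56 members, UMIs of the 15 selection genes (x axis) against UMIs of the highest other-cell marker list plus 1 (y axis, log scale), with colour for class and symbol for the list. Points above the dashed line, 12 nuclei in all, hold more other-cell than selection UMIs, and the highest is the mixed nucleus with 347 choroid plexus and ependymal UMIs.

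The 6 endothelial selection genes are described first, and their height over non-member nuclei was set by the rule. Slco1a4, an organic anion and thyroid hormone transporter, led at 4135 CPM (196 UMIs in 17 of 20 nuclei, 95% Poisson interval 3577 to 4757) against 0.287 CPM in non-member nuclei. By library it stood at 2192, 4927, 6073, 6282 and 4893 CPM. The wild-type library alone held endothelial-like nuclei with more other-cell than selection UMIs, 3 of its 7, and without them its Slco1a4 stood at 4555 CPM. Flt1 followed at 3397 CPM (161 UMIs in 19 nuclei), at 3069, 2816, 4321, 2094 and 4757 CPM by library. Without the 3 nuclei its wild-type level was 4555 CPM as well. Cldn5 was at 1013 CPM in 18 nuclei, with 877, 1642, 701, 1496 and 951 CPM by library (1449 CPM in wild type without the 3 nuclei), and Adgrl4, an adhesion receptor of endothelium, was at 2026 CPM. Mecom stood at 974, 5397, 3620, 5684 and 2854 CPM, with 1863 CPM in wild type without the 3 nuclei. Ptprb, a receptor phosphatase that restrains the angiopoietin receptor, stood at 828, 3050, 1401, 1197 and 1903 CPM, and its wild-type level was likewise 1449 CPM without them.

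Uptake carriers and efflux pumps of the barrier were among the genes outside the rule. All 14 further endothelial markers were at least 2-fold higher than in non-member nuclei with 3 or more UMIs, beside 6.37% of all 32285 genes higher and 5.57% at least 2-fold lower, and their median log2 ratio was 4.09 beside 0.00 over all genes. Since the nuclei were chosen on endothelial RNA, this count describes them and tests nothing. The 0.00 reflects the 72.7% of genes with no UMI. Over genes with 10 or more UMIs the median was 4.38 for these markers and 1.24 for all genes. For all such genes it was 1.11 in mural-like and 0.936 in fibroblast-like nuclei. In each class a gene near 0 CPM in non-member nuclei counts as at least 2-fold higher with 3 UMIs. The counts of the lists below thus partly record detection. Cyyr1, a cysteine and tyrosine rich membrane protein, was at 1203 CPM, Tek, the angiopoietin receptor, at 886 CPM, and Egfl7, a secreted factor of endothelium, at 654 CPM. Of 25 transporters and tight junction genes, 22 were at least 2-fold higher and none was at 0. They included the drug efflux pump Abcb1a at 1477 CPM (70 UMIs), the thyroid hormone carrier Slco1c1 at 1435 CPM (68 UMIs), the junction scaffold Tjp1 at 1350 CPM, the glucose transporter Slc2a1 at 949 CPM, the efflux pump Abcc4 at 865 CPM and the zinc transporter Slc39a10 at 844 CPM. Abcb1a was at 731, 939, 2102, 1944 and 2718 CPM by library, and Slc2a1 at 390, 1408, 1985, 299 and 1631 CPM. Neither gene was missing from a library. Of 22 Wnt and VEGF signalling genes, 16 were at least 2-fold higher, and among them Lef1, a nuclear effector of Wnt signalling, reached 1393 CPM in 16 of the 20 nuclei. It was at 1072, 0, 1752, 3440 and 816 CPM by library, with 0 UMIs in the 4262 UMIs of the 5xFAD library, which allows up to 704 CPM.

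Lists of genes of position along the vessel gave unlike counts, which carry no test. Of 12 arterial genes, 7 (58.3%) had no UMI in endothelial-like nuclei (Gkn3, Sema3g, Gja4, Gja5, Hey1, Unc5b and Fbln5) and 1 was at least 2-fold higher, beside 72.7% of all genes with no UMI and the 6.37% higher. A gene at 0 could still have been present at up to 63.3 CPM. All 14 capillary and venous genes were at least 2-fold higher. They included Icam1 and Lcn2, whose UMIs lay in only 1 and 2 of the 20 endothelial-like nuclei. Tfrc, the transferrin receptor, was at 654 CPM and Spock2, an extracellular matrix proteoglycan, at 760 CPM. Of 20 genes of leukocyte adhesion and inflammation, 12 were at least 2-fold higher, with Il1r1, the interleukin-1 receptor, at 738 CPM. Of 25 interferon response and MHC class I genes, 12 were at least 2-fold higher, none with 30 UMIs. Of 15 genes of amyloid transport and clearance, 7 were, and Apoe stood at 823 CPM in endothelial-like nuclei and at 1413, 704, 467, 150 and 272 CPM by library. Of its 39 UMIs, 29 were in the wild-type library, which also held the 3 endothelial-like nuclei with more astrocyte or oligodendrocyte than selection UMIs. The part of these nuclei in the Apoe values was not tested.

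**Figure D4:**
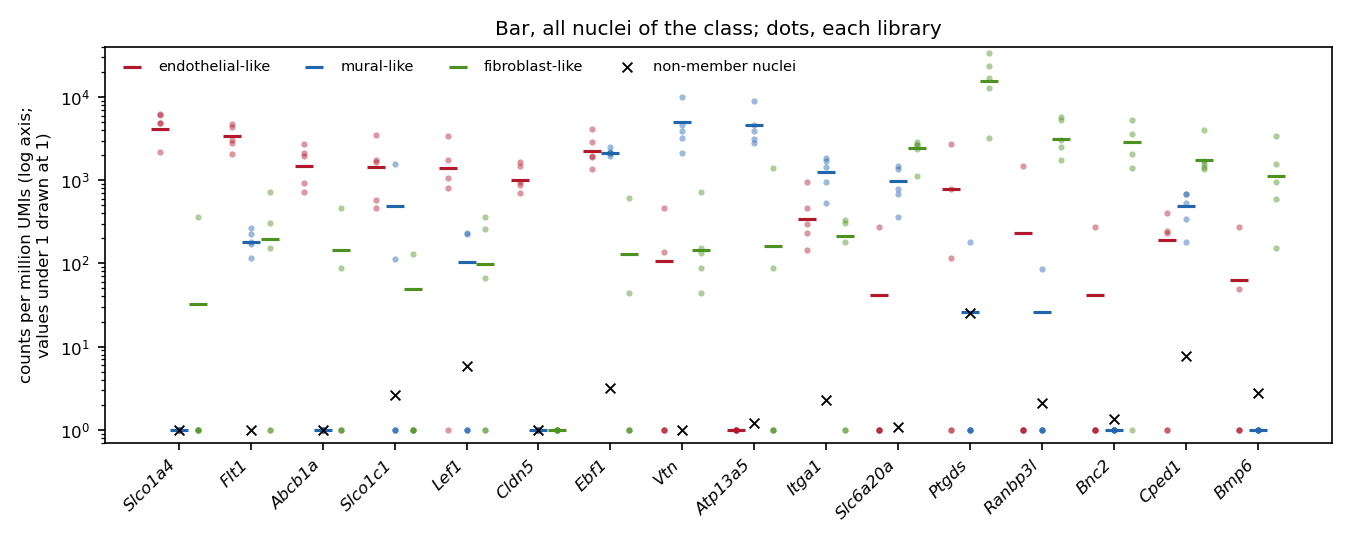
Counts per 1000000 UMIs (log axis, values under 1 drawn at 1) of 16 genes in endothelial-like, mural-like and fibroblast-like nuclei, with a bar for all nuclei of a class, dots for the 5 libraries and crosses for non-member nuclei. Ebf1 is high in endothelial-like and mural-like nuclei, Slc6a20a in mural-like and fibroblast-like nuclei, and Ptgds is highest in fibroblast-like nuclei.

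The mural-like nuclei carried pericyte genes. Vtn, which encodes vitronectin, led at 5077 CPM (196 UMIs in 14 of 14 nuclei, 2 to 30 per nucleus; interval 4391 to 5839). By library it stood at 3260, 3880, 4651, 10092 and 2105 CPM. Each library but neuron MAGL-KO had 1 mural-like nucleus with more other-cell than selection UMIs, and without these 4 nuclei Vtn stood at 8283, 10039, 9142, 10092 and 4132 CPM. Atp13a5 was at 4662 CPM in all 14 nuclei and at 2810, 3104, 4651, 8945 and 3946 CPM by library, or 8283, 7772, 4219, 8945 and 8264 CPM without the 4 nuclei. Pdgfrb, the PDGF receptor on which pericytes depend, was at 1114 CPM, and Notch3, the mural Notch receptor, was at 1088 CPM. By library Pdgfrb stood at 899, 690, 1073, 1950 and 1052 CPM, or 3012, 972, 2813, 1950 and 2066 CPM without the 4 nuclei. The libraries that lost a nucleus were left with 1 or 2, so these values give no order of the libraries. Rgs5, a regulator of G protein signalling, was at 648 CPM, and Abcc9, the regulatory subunit of the ATP-sensitive potassium channel, was at 829 CPM. Its pore subunit Kcnj8 had 6 UMIs, all 5 libraries holding at least 1.

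Of 16 further pericyte and smooth muscle markers, 9 were at least 2-fold higher in mural-like than in non-member nuclei, beside 4.89% of all genes higher and 5.95% at least 2-fold lower, and 5 had no UMI. The contractile genes Acta2, Tagln and Lmod1 had 0 UMIs and Myh11 had 1, in 38607 UMIs, so that each gene at 0 lay below the 77.7 CPM that a count of 0 allows. Over all genes 75.4% had no UMI in this class. Ebf1, a transcription factor, was at 2150 CPM and near constant by library, at 2136, 2155, 2504, 1950 and 2105 CPM. It was as high in endothelial-like nuclei, at 2215 CPM. Of 19 potassium, calcium and contraction genes, 11 were at least 2-fold higher, or 10 of 18 without the selection gene Abcc9. Prkg1, the cyclic GMP-dependent kinase, was at 4067 CPM against 1157 CPM in non-member nuclei, the actin regulator Cald1 at 1476 CPM, the calcium channel Cacna1c at 1036 CPM against 894 CPM, and the calcium release channel Itpr1 at 829 CPM. Of 15 genes of amyloid transport and clearance, 7 were at least 2-fold higher, with Apoe at 1295 CPM. Its 50 UMIs lay in 5 nuclei, 23 of them in 1, and the astrocyte list stood at 5465 CPM in mural-like nuclei, mostly from 3 nuclei, with a median of 0 UMIs. The part of astrocyte RNA in Apoe was not tested.

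The fibroblast-like nuclei were led by Ptgds, at 15568 CPM (958 UMIs in 15 of 15 nuclei, interval 14597 to 16586) against 25.3 CPM in non-member nuclei. By library it stood at 34183, 3212, 23626, 12774 and 16868 CPM. Single nuclei carried most of it in several libraries: 177 of 189 UMIs in wild type, 146 of 153 in astrocyte MAGL-KO and 191 of 194 in neuron MAGL-KO, so these values give no order of the libraries. Of the selection genes, Ranbp3l was at 3136 CPM and Bnc2, a zinc finger factor of meningeal fibroblasts, at 2876 CPM. Ranbp3l was at 5788, 1736, 5250, 2502 and 3023 CPM by library and Bnc2 at 0, 3559, 1390, 5268 and 2059 CPM. Bnc2 was thus at 0 in the wild-type library, whose 2 nuclei held 5529 UMIs (a count of 0 allows up to 543 CPM), and its UMIs elsewhere lay unevenly. In the 4 nuclei that held Slc47a1, described below, lay 36 of the 41 Bnc2 UMIs in 5xFAD, 62 of the 80 in neuron MAGL-KO and 14 of the 47 in global MAGL-KO, and the wild-type and astrocyte MAGL-KO libraries had no such nucleus in this class. The GABA transporter Slc6a13 (455 CPM) and the collagen gene Col1a2 (260 CPM) were lower and were detected in 11 and 12 of the 15 nuclei.

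The carriers known from meningeal fibroblasts include the selection gene Slc6a13. All 13, and so all 12 others, were at least 2-fold higher than in non-member nuclei, beside 5.99% of all genes higher and 4.8% at least 2-fold lower, with a median log2 ratio of 4.49. The carrier genes were Slc4a10, a sodium-coupled bicarbonate transporter, at 2649 CPM, the proline transporter Slc6a20a at 2421 CPM, the cystine exchanger Slc7a11 at 1495 CPM, the glutamine transporter Slc38a2 at 1316 CPM, the glutamate transporter Slc1a3 at 943 CPM and the dicarboxylate transporter Slc13a3 at 520 CPM. Slc1a3 is also 1 of the 10 astrocyte markers above, so its 58 UMIs count in both lists. Of 17 further fibroblast markers, 14 were at least 2-fold higher. Cped1 was at 1771 CPM, and Eya2, a transcriptional coactivator, was at 666 CPM. Eya2 and Prdm6, a transcriptional repressor (878 CPM), had no UMI in endothelial-like and mural-like nuclei. Of 24 basement membrane and matrix genes, 12 were at least 2-fold higher, led by the laminin gene Lama2 at 1251 CPM. Fibrillar collagens were low: Col1a1 had 2 UMIs and Col3a1 had 4, all in 1 nucleus. The fibroblast marker Lum, which is not a collagen gene, had 0.

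The class was not uniform, and the division described here was noticed in the values and carries no test. Slc47a1, an exporter of organic cations, was detected in 4 of the 15 nuclei, 1 in 5xFAD, 2 in neuron MAGL-KO and 1 in global MAGL-KO, with 2 to 11 UMIs each. The same 4 nuclei held 22 to 65 UMIs of Slc4a10, and the other 11 held 0 or 1. They held 14 to 38 UMIs of Bnc2, 0 or 1 of Ranbp3l and 1 to 3 of Ptgds. In the other 11, Ranbp3l had 4 to 37 and Ptgds 2 to 191. Summed, the 4 nuclei held the forkhead factor Foxp2 at 3975 CPM and Mgp, which encodes matrix Gla protein, at 2396 CPM, against 324 and 46.3 CPM in the other 11. Slc6a20a, Slc1a3 and Slc13a3 had no UMI in the 4 nuclei and stood at 3451, 1343 and 741 CPM in the other 11. The counts of Cped1 were alike, at 1634 and 1830 CPM. Of the 16 nuclei that failed the rule with 2 genes, most held genes of the group of 4 and some held genes of the other 11. Slc4a10 had 430 UMIs in 12 of them, Slc47a1 had 72 in 12 and Foxp2 had 236 in 15, while Ranbp3l had 41 in 3, Ptgds had 191 in 8 and Slc6a20a had 25 in 4. The group of 4 and the 16 lay in the 5xFAD, neuron MAGL-KO and global MAGL-KO libraries. In the astrocyte MAGL-KO library the mixed nucleus with 347 choroid plexus and ependymal UMIs also held 8 UMIs of Slc47a1, 52 of Slc4a10, 22 of Bnc2 and 0 of Ranbp3l. Its choroid plexus and ependymal UMIs included 208 of Ttr and 124 of Htr2c. The part of choroid plexus RNA in its Slc4a10 UMIs was not tested.

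Of 18 genes of the endocannabinoid system and of prostaglandin synthesis, 4, 0 and 2 were at least 2-fold higher in endothelial-like, mural-like and fibroblast-like nuclei than in non-member nuclei, beside the 6.37%, 4.89% and 5.99% of all genes given above, and 4, 5 and 5 were at least 2-fold lower. Of the 18, 44.4%, 61.1% and 55.6% had no UMI, beside 72.7%, 75.4% and 70.4% of all genes. Mgll had 6, 7, 3, 0 and 3 UMIs in the members of the 5 libraries, or 172, 195, 66.0, 0 and 88.3 CPM. Of the 7 in 5xFAD, 5 lay in 1 mural-like nucleus that held 97 astrocyte and 25 selection UMIs. In wild type 1 endothelial-like nucleus held 3, and the 3 endothelial-like nuclei with more other-cell than selection UMIs held 1 each. These values therefore give no order of the libraries, and the part of other-cell RNA in them was not tested. The 0 of the neuron MAGL-KO library rests on 39598 UMIs and allows up to 75.8 CPM, and its Poisson interval ends at 93.2 CPM, above the 92.4 CPM of non-member nuclei there. Mgll was therefore not shown to be absent in any library. By class it had 10 UMIs in endothelial-like nuclei (211 CPM, interval 101 to 388). Cnr1, the main cannabinoid receptor of brain, and Faah, which degrades anandamide, had 0 UMIs in endothelial-like, mural-like and fibroblast-like nuclei. Of the enzymes of prostaglandin synthesis, Ptgs1, Ptgs2 and Ptgis had 0 UMIs in fibroblast-like nuclei and Ptges had 1, while Pla2g4a, a phospholipase that releases arachidonic acid, had 10.

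Endothelial-like nuclei of 5xFAD were next compared with wild type, and those of the 3 libraries labelled as MAGL knockouts with 5xFAD. The numbers of nuclei were small: 2 in 5xFAD with 4262 UMIs, 7 in wild type with 20527, and 5, 3 and 3 with 8563, 6686 and 7357. With at least 30 UMIs over both libraries, 64 genes could be compared between 5xFAD and wild type, of which 9 (14.1%) were at least 2-fold higher and 23 (35.9%) lower. The same comparison of astrocyte MAGL-KO with 5xFAD covered 20 genes with 6 (30.0%) higher and 2 (10.0%) lower, that of neuron MAGL-KO 12 genes with 2 (16.7%) higher and 0 (0.0%) lower, and that of global MAGL-KO 11 genes with 3 (27.3%) higher and 1 (9.09%) lower. The 3 knockout comparisons share the 2 endothelial-like nuclei of 5xFAD and are not independent of each other. These are folds between single libraries, with no replicate.

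Slco1a4, Flt1 and Mecom are selection genes, so their values between libraries are a description only. Slco1a4 had 21 UMIs in 5xFAD and 45 in wild type, at 4927 (3050 to 7532) and 2192 (1599 to 2933) CPM, a log2 ratio of 1.16 with intervals that did not overlap. Without the 3 wild-type nuclei that held more other-cell than selection UMIs the ratio was 0.11. Flt1 (12 and 63 UMIs) had a log2 ratio of -0.12, and the membrane skeleton gene Sptbn1 (15 and 46 UMIs) had 0.65, with overlapping intervals for both. The cytoskeletal linker Macf1 (5 and 63 UMIs) had -1.37 and the receptor phosphatase Ptprg (8 and 85 UMIs) had -1.13, also with overlapping intervals. In the 1 5xFAD nucleus with Xist and the 1 with Y-linked UMIs, each set against wild-type nuclei of its kind, the ratio of Slco1a4 was 1.17 and 5.07, that of Flt1 -2.97 and 1.42, and that of Sptbn1 -0.23 and 1.53. These ratios thus differed between single nuclei. Without the same 3 nuclei the ratios of Flt1, Sptbn1, Macf1 and Ptprg were -0.69, -0.04, -1.18 and -1.81. Gpc5, a glypican, had 0 UMIs in 5xFAD against 108 in wild type, where it stood at 5261 CPM (4316 to 6352). This is at least 7.47-fold lower against the 704 CPM that a count of 0 allows in the 5xFAD library. All 108 Gpc5 UMIs lay in the 3 wild-type nuclei with more other-cell than selection UMIs, since without them both libraries were at 0. Leaving out these nuclei changed the count of genes past 2-fold from 32 of 64 to 13 of 25 that could be compared, so that the share stayed near its value with them.

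Against 5xFAD, Slco1a4 had log2 ratios of 0.30 in astrocyte MAGL-KO (52 and 21 UMIs) and 0.35 in neuron MAGL-KO (42 and 21), and Mecom had 0.07 in neuron MAGL-KO (38 and 23 UMIs). All these intervals overlapped. Zbtb20, a zinc finger repressor, had 62 UMIs in global MAGL-KO against 12 in 5xFAD, at 8427 (6461 to 10803) and 2816 (1455 to 4918) CPM, a log2 ratio of 1.57 with intervals that did not overlap. It was 2.48 in nuclei with Xist and 1.07 in those with Y-linked UMIs. Almost none of the gene lists could be compared. Of the 25 barrier genes, Tjp1 alone had enough UMIs between 5xFAD and wild type (log2 ratio -0.05), and Slco1c1 alone between astrocyte MAGL-KO and 5xFAD (2.85, from 2 UMIs in 5xFAD to 30). Apoe was the only gene of amyloid transport and clearance that could be compared, at -0.98 in 5xFAD, and no gene of the interferon, adhesion, or Wnt and VEGF lists reached 30 UMIs in any comparison.

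Chromatin of the same nuclei was not used to choose the members and could be tested against non-member nuclei across the 5 libraries. The cut sites of each class were summed per library, set against the sum over non-member nuclei of that library, and tested with edgeR's quasi-likelihood test with the library as a block. Over 129601 merged peak regions present in all libraries, 2 were called at an adjusted p under 0.05 in endothelial-like nuclei (0.00154% lower, 0.0% higher), 3 in mural-like nuclei (0.00231% lower) and 2 in fibroblast-like nuclei (0.00154% lower). With TMM factors edgeR called no region higher in any class. These factors ranged from 0.348 to 5.01, 0.331 to 6.50 and 0.303 to 31.8 for endothelial-like, mural-like and fibroblast-like nuclei. With total scaling edgeR called 1, 1 and 8 higher in these classes, and without the library block 61, 66 and 69. At an unadjusted p under 0.05 the edgeR fit with TMM gave 46570, 40215 and 47959 regions, of which 11, 2 and 7 were higher. DESeq2 called 19, 46 and 19 higher after adjustment. The number of higher regions thus depended on the scaling and the test. Both regions called in endothelial-like nuclei lay at Thy1, a surface glycoprotein of neurons, and were also called in mural-like and fibroblast-like nuclei. The region chr9:44048566-44049427, at the 3′ end of the gene, held 0, 0 and 2 cut sites in endothelial-like, mural-like and fibroblast-like nuclei against 193866 in non-member nuclei. The region chr9:44042860-44043763 at its promoter held 3, 0 and 2 against 153500. The other region called in mural-like nuclei lay at the gene model Gm10800 on chromosome 2, at 2.81 cut sites per 10000 against 9.55. It held 409389 cut sites in non-member nuclei. The window of Gm10800 was called in the other direction in endothelial-like nuclei, as given below, and the reason was not tested. Where a promoter of a selection gene or further marker overlapped a tested region, that region was not called. Among the selection genes Adgrl4, Slco1a4, Atp13a5, Abcc9 and Col1a2 had no promoter peak in any library, and Flt1, Mecom and Notch3 had one in 4, 4 and 1 libraries.

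**Figure D5:**
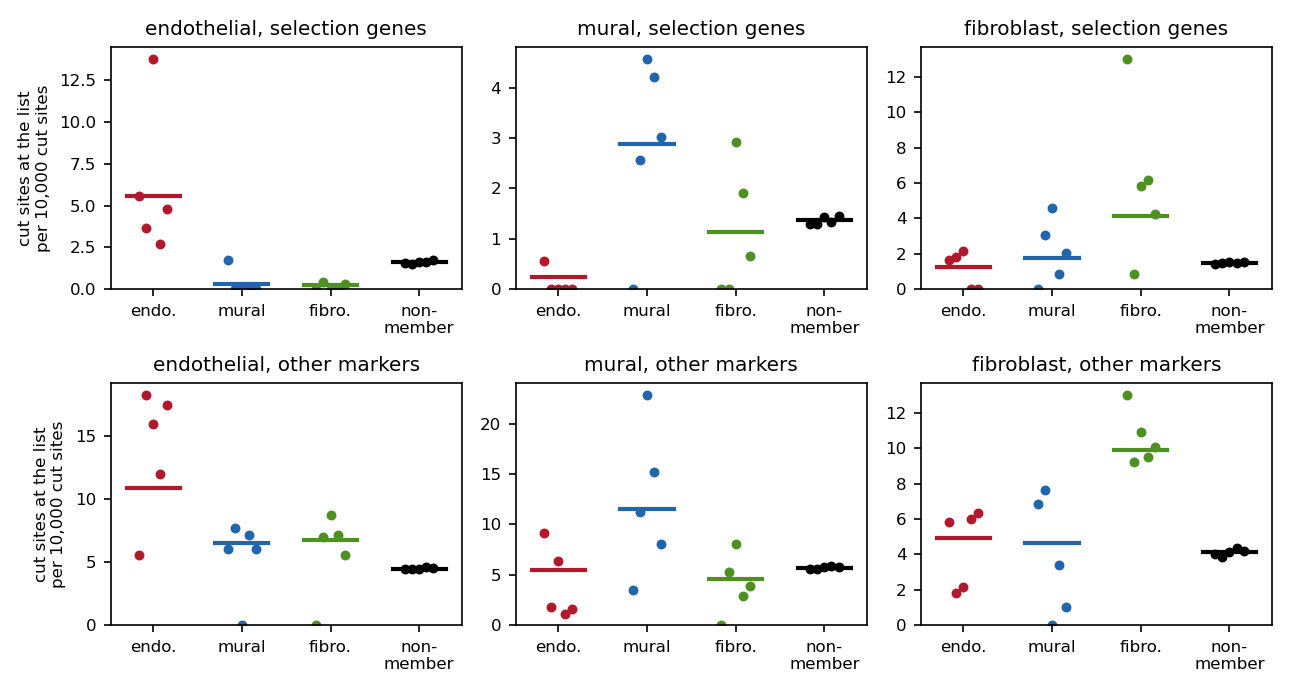
Cut sites in peaks within 10000 bases of the genes of 6 marker lists, per 10000 cut sites of the class; dots are the 5 libraries (where the class had cut sites) and bars the sums over libraries. Among the 3 classes each list is highest on its own class, and in the endothelial panels all 5 endothelial-like values lie above the non-member values.

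Single regions held few cut sites, so that peaks within 10000 bases of each gene were also summed, a step added after the data had been seen. Summed over the 6 endothelial selection genes, endothelial-like nuclei had 5.55 cut sites per 10000 (45 cut sites in 13 of 20 nuclei) against 1.62 in non-member nuclei, and were higher in 5 of 5 libraries. Mural-like and fibroblast-like nuclei had 0.289 and 0.225 at the same genes. The 14 endothelial markers outside the rule had 10.8 per 10000 in endothelial-like nuclei against 4.48, higher in 5 of 5 libraries. At these 14 genes mural-like and fibroblast-like nuclei, at 6.50 and 6.74, were also above non-member nuclei. For mural-like nuclei the 5 mural selection genes gave 2.89 against 1.37 (4 of 5 libraries), and the 16 further markers gave 11.6 against 5.69 (4 of 5). For fibroblast-like nuclei the 4 fibroblast genes gave 4.15 against 1.47 (4 of 5) and the 17 further markers 9.88 against 4.10 (5 of 5). In both of these counts the wild-type library rests on 1 cut site of 767. At the 17 genes endothelial-like and mural-like nuclei, at 4.93 and 4.62, were also above 4.10, as mural-like nuclei were at the 4 genes, at 1.73. Leaving out the nucleus with most of these cut sites kept all 6 values above those of non-member nuclei, at 5.23, 10.2, 2.37, 10.48, 3.79 and 9.27. No test was made for these lists.

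Tested gene by gene, 18 of 22788 gene windows (0.079%) were higher and 65 (0.285%) lower in endothelial-like nuclei when columns were scaled to total cut sites. With TMM factors, which ranged from 0.638 to 2.64 on these sparse columns, 1 was higher and 1096 lower. The median log2 difference over all windows moved from -1.02 under totals to -2.18 under TMM. DESeq2 called 469 higher and 1440 lower of 26474 windows. All 65 windows lower under totals were lower under TMM, and Id3 was the only window higher under both. Its window (chr4:136143497-136145755 with the flanks) held 21, 7, 7, 8 and 6 endothelial-like cut sites in the 5 libraries. This was 6.04 per 10000 against 0.291, higher in 5 of 5 libraries, with a log2 difference of 4.15 and an edgeR adjusted p of 7.0e-07. Under TMM it was 2.92 with an adjusted p of 0.00477, and without each library in turn the highest adjusted p under totals was 0.000164. The Id3 RNA stood at 253 CPM in endothelial-like nuclei against 0.661 CPM in non-member nuclei. The Id3 promoter printed above lies in this window.

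The further windows higher under totals alone were of mixed kinds, and no marker of the endothelial lists was among them. Of those named here, picked after their values were seen, Klf2, the flow-responsive Kruppel-like factor, had 12, 4, 6, 2 and 4 cut sites by library, 3.45 per 10000 against 0.334 (adjusted p 0.0146 by edgeR), and 9 UMIs of RNA in endothelial-like nuclei with 0 in both other classes. Epas1, a hypoxia-inducible factor of endothelium, had 5, 4, 6, 4 and 6 cut sites (edgeR adjusted p 0.021) and 34 UMIs in endothelial-like nuclei. Its window was cut as often in mural-like nuclei, at 25 sites or 3.61 per 10000 beside 3.08 in endothelial-like nuclei, a difference that was not tested. Adgrf5, an adhesion receptor of endothelium, had 2, 7, 4, 4 and 1 (edgeR adjusted p 0.0464) and 23 UMIs. Klf2, Epas1 and Adgrf5 were each above non-member nuclei in 5 of 5 libraries and each missed the threshold under TMM (adjusted p 0.126, 0.149 and 0.119) or without 1 of the libraries (highest adjusted p 0.223, 0.244 and 0.461). Fas, Tgm2, Litaf, Plekhg2, Zfp36, Kcnj16 and Gng5 were also called, the others being gene models without a gene name, and the windows of Zfp36 and Plekhg2 overlap. Among the 18, the gene models Gm10800 and Gm10801 share 1 set of peaks with 270 cut sites. The 65 lower windows were not sorted by gene length or cell type, and Rbfox1 and Opcml are given as examples. On columns this sparse, a window with few non-member cut sites could hardly be called lower. The rule also limited neuronal RNA in the members. Rbfox1, a neuronal splicing factor, had 6 cut sites, all in the wild-type library, against 383868 in non-member nuclei (edgeR adjusted p 1.3e-06), and the adhesion gene Opcml had 0 against 210349 (edgeR adjusted p 6.55e-05).

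In mural-like nuclei 5 of 22788 windows (0.0219%) were higher and 34 (0.149%) lower. Under TMM, with factors from 0.609 to 3.03, 0 were higher (19 at an unadjusted p under 0.05, and 465 by DESeq2) and 788 lower. Zic4, a zinc finger factor, had 4, 2, 0, 6 and 2 cut sites, 2.02 per 10000 against 0.0489 (log2 4.92, edgeR adjusted p 0.0239, TMM 0.0504), and 7 UMIs of RNA. Tppp2 and Rnase13 share 1 set of peaks with 27 cut sites, and Cdc42ep1 and Magi3 were the remaining windows. Each of the 5 lost its call when 1 of the libraries was left out. The lower windows included Thy1, with 0 mural-like cut sites, and the synaptic scaffold Dlg2, with 3 against 357151. In fibroblast-like nuclei 21 of 22790 windows (0.0921%) were higher and 143 (0.627%) lower. Under TMM, with factors from 0.565 to 15.3, 0 were higher (23 at an unadjusted p under 0.05, and 386 by DESeq2) and 498 lower. Id3 led, with 0, 12, 4, 17 and 9 cut sites, 4.72 per 10000 against 0.291 (log2 3.64, edgeR adjusted p 7.31e-06, TMM 0.0833), and it was the 1 higher window that stayed called without each library in turn, as 21 lower windows did. The wild-type library, at 0, held only 767 fibroblast-like cut sites. Gas1 had 0, 10, 4, 2 and 8 cut sites (edgeR adjusted p 0.0144), Mmp14, a membrane matrix metalloprotease, had 2, 2, 6, 8 and 7 (edgeR adjusted p 0.00274), and the ligand Bmp4 had 0, 2, 2, 8 and 0 (edgeR adjusted p 0.0234). Gas1, Mmp14 and Bmp4 had 3, 4 and 4 UMIs of RNA in fibroblast-like nuclei, so their RNA gives little beside the chromatin.

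None of the 15 selection genes passed the test as a single window. Of them, 4 of 6 endothelial, 4 of 5 mural and 4 of 4 fibroblast genes lay above non-member nuclei in their own class. Of the further markers 10 of 14, 10 of 16 and 9 of 17 did, beside 43.1%, 41.8% and 44.9% of all windows. Cut sites come in pairs from the ends of a fragment, so that counts of 2 may be 1 molecule.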

How the data were processed

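RNA and chromatin accessibility were measured in the same nuclei of 5 hippocampal libraries, 1 per genotype, prepared with the 10x Multiome kit per the labels' protocols. The authors deposited UMI counts per gene and counts of cut sites per peak. Cell Ranger ARC 2.0.0, Seurat and the mm10 build are named per the submitters' processing notes; the aligner and gene annotation are not given in the sources used here.

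From these counts members were found by the stated rule, and UMIs were summed by class and library and scaled to counts per 1000000 UMIs (CPM). Log2 ratios of RNA use a pseudocount of 20 CPM and understate low genes. Intervals are exact Poisson for sums and Clopper-Pearson for shares, both at 95%; a count of 0 was given a limit of 3 counts. Total UMIs in wild type, 5xFAD, astrocyte, neuron and global MAGL-KO libraries were 128440075, 121643745, 119308230, 101930394 and 159524291.

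Cut sites were tested with edgeR 4.0.16 (R 4.3.3; quasi-likelihood, library as block, Benjamini-Hochberg), with TMM factors for regions and total scaling for gene windows. The plan left out libraries with under 5 mural-like or fibroblast-like nuclei. Because too few libraries then remained for a test, all 5 were kept for these classes, a departure from the plan. All 5 were also used for endothelial-like nuclei, which numbered 7, 2, 5, 3 and 3. p-values measure only the spread between these libraries. Alternatives included DESeq2 1.42.0, other scaling, other thresholds and leaving out libraries. Doublets were scored with Scrublet in scanpy 1.11.5 and none was removed. The test on gene windows was also run on artificial counts with known changes. There total scaling found most higher windows and few lower ones, and TMM factors missed many, all of them for fibroblast-like nuclei. In the libraries themselves total scaling called more lower than higher windows in each class. In the artificial counts, class and non-member columns had equal levels at every unchanged window, so total scaling was right by construction. The changes were large and were placed only in windows above the median count. The artificial counts therefore cannot decide between total scaling and TMM. Whether the test performs alike on artificial counts and on these sparse, paired cut sites was not tested.

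The members and gene lists were chosen with earlier results of these data known. Named genes are the 15 selection genes, up to 6 genes per list with at least 30 UMIs, and, per comparison, up to 4 of the highest and 4 of the lowest ratios with at least 60 UMIs; others were picked with their values in view. Some genes under the rule are not reported here. Promoter sequences are from RefSeq (GRCm38.p6), with all 6 genes matched.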

Additional observations from a re-analysis of the deposited data

How the results depend on the processing

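The counts of genes past 2-fold between endothelial-like nuclei of 2 libraries depended on the minimum of UMIs. Without it they were 6245 for 5xFAD against wild type and 3736, 3275 and 3470 for astrocyte, neuron and global MAGL-KO against 5xFAD, and with 100 UMIs they were 3, 0, 0 and 0. The 5xFAD count of 32 of 64 genes was 13 of 25 without nuclei holding more other-cell than selection UMIs, 13 of 20 in nuclei with Xist only and 6 of 9 in nuclei with Y-linked UMIs only, where fewer genes could be compared and the share past 2-fold did not fall. In the latter, Ptprg turned to 0.20. Further ratios of single genes that moved in these nuclei stand beside their values above, and Macf1 was -2.34 with Xist. The astrocyte count of 8 of 20 was 4 of 9 in Y-linked nuclei. The neuron count of 2 of 12 was 4 with median-of-ratios scaling and 4 of 8 in Xist nuclei, and the global count of 4 of 11 was 0 of 1 there. The share of members in the global library was 0.241% with 2 genes.

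Calls of regions (2 endothelial-like, 3 mural-like, 2 fibroblast-like) were 1, 1 and 10 with total scaling, 1 and 0 with RLE factors for endothelial-like and fibroblast-like nuclei, 21, 67 and 28 with DESeq2, and 30893, 28359 and 35370 without the library block. Leaving out 1 library gave 2 to 3, 3 to 3 and 0 to 4. Calls of gene windows (83, 39 and 164) were 1097, 788 and 498 with TMM, 1909, 1399 and 1058 with DESeq2, 575, 325 and 696 without the block, and 30, 12 and 71 at an adjusted p under 0.01. Leaving out 1 library gave 17 to 40, 4 to 44 and 42 to 137. The gene windows and total scaling were chosen after the data were seen. The cause of these shifts was not tested. Of the values of these counts and shares under alternatives, 102 stayed within 1.5 times or the counting interval and 56 did not. Of those of single named genes, 98 stayed within it, 18 moved beyond it and 1 reversed. No paired analysis was possible because 1 library stood for each genotype. Depth limits what can be seen, since a class holds 38607 to 61538 UMIs and a gene under about 48.8 to 77.7 CPM can be missed.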

Other observations

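A few members carried UMIs of genes that were at 0 in most nuclei of their class; they were picked after their values were seen. In 5xFAD, 1 of the 2 endothelial-like nuclei held 9 UMIs of Icam1, 9 of Vcam1, 5 of Vwf and 3 of Lcn2 in 2217 UMIs. Icam1 and Vcam1 encode adhesion molecules that bind leukocytes, Vwf the von Willebrand factor and Lcn2 the iron-carrier binding protein lipocalin-2. Its Icam1 UMIs were all those found in the 20 endothelial-like nuclei. In the astrocyte MAGL-KO library 1 endothelial-like nucleus held 10 UMIs of Lcn2, 4 of Vwf and 2 of Vcam1 in 1517 UMIs, so that 2 nuclei held all 13 Lcn2 UMIs of the class. Vwf had 0 UMIs in the 7 wild-type endothelial-like nuclei and 7, 6, 5 and 3 in the other libraries, where a count of 0 in wild type allows up to 146 CPM. Without the wild-type nuclei that held more other-cell than selection UMIs, this 0 rests on 4 nuclei with 9660 UMIs and allows a higher level.

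Haemoglobin RNA was found in 1 wild-type endothelial-like nucleus, with 54 UMIs of Hbb-bs and 20 of Hba-a1 among 4681 UMIs, and Hbb-bs had 1 UMI in each of 3 further members. The mixed nucleus of the astrocyte MAGL-KO library with 347 choroid plexus and ependymal UMIs also held 22 fibroblast and 11 endothelial selection UMIs in 13937 UMIs.

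In fibroblast-like nuclei Alcam, a cell adhesion molecule, had 615 UMIs in 15 of 15 nuclei (9994 CPM) against 365 CPM in non-member nuclei, and Nnat, an imprinted gene, had 208 UMIs (3380 CPM) against 90.0 CPM. By library Alcam stood at 2532, 6770, 5559, 7243 and 16517 CPM, lowest in wild type and highest in the global MAGL-KO library, where 1 nucleus held 217 of the 377 UMIs.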
